A study of Homo sapiens with 8 samples.

Results

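DNA replication and S phase genes encode the proteins that prepare origins, open and copy the double helix and supply its building blocks. They were taken here as the rows whose gene symbol is among 41 names: 10 genes of origin licensing, 6 of helicase activation, 5 of the sliding clamp and its loader, 6 of the polymerases and primase, 5 of Okazaki fragment maturation and single-strand binding, 4 of deoxynucleotide synthesis and 5 G1/S regulators or S phase ubiquitin ligase factors. All 41 were found among the 60592 rows of the expression table, no symbol occurred on more than 1 row, and all 41 passed the filter of at least 1 FPKM (fragments scaled to gene length and library size) in at least 2 libraries, as did 12063 genes in all.

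RNA sequencing was done on WSU-DLCL2, an established line of human diffuse large B-cell lymphoma, a cancer of mature B cells. Control cells, labelled wild type, and cells labelled FDX1-OE, which overexpress ferredoxin 1, an iron-sulfur protein of mitochondria, were given the copper ionophore elesclomol (ES) or its solvent DMSO. The dose of ES was 15 nM and exposure lasted 48 h in all 4 groups, which are named here by cell population and agent and have 2 libraries each. The means of overexpression, its clonality and the vector carried by control cells are not given in the labels. Nothing in the labels says that replicates were grown as separate cultures, so p-values reflect only how far these samples differ, and that difference may be technical.

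Before S phase, CDC6, CDT1 and the origin recognition complex load the MCM2 to MCM7 helicase onto DNA. CDC45 and the GINS complex then activate it, DNA polymerase alpha with primase starts each strand, and the polymerases delta and epsilon extend it behind the PCNA clamp. Many of these genes are transcribed at the G1/S boundary by E2F factors, in step with cyclin E, and cycling lymphoma cells express them at high levels.

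In FDX1-OE cells, ES went with higher mRNA of a subset of these genes. CCNE2, which encodes cyclin E2, rose 4.16-fold in FPKM, and RRM1, RRM2 and TYMS of deoxynucleotide synthesis, DTL and PRIM1 rose 1.61-fold to 1.90-fold. FEN1 and POLD1 fell, and MCM2, MCM6 and MCM7 did not pass the test. In control cells the same dose called 2 members, CCNE2 as higher and FEN1 as lower, and in DMSO none of the 41 genes differed between FDX1-OE and control cells by the test. The members called were no larger a share of the list than of all genes in the FDX1-OE comparison, so the description below is about which members moved.

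The 8 libraries had FPKM sums between 403024 and 451027, lowest in FDX1-OE ES, and the absolute depth is unknown. FDX1 was at 10.8 and 10.4 FPKM in control DMSO, 59.8 and 56.0 in FDX1-OE DMSO, 9.88 and 10.0 in control ES, and 60.7 and 59.4 in FDX1-OE ES. The libraries thus followed their labels of cell population. FDX1 was at a like level in ES and DMSO, so it does not check the labels of the agent. The FDX1-OE ES pair stood apart: its median absolute log2 difference between replicates was 0.165 over all genes tested against 0.075 to 0.0876 in the other 3 groups, and mitochondrial mRNAs held 14.7% and 11.9% of its FPKM against 16.9% to 17.6% elsewhere. Of 10 B cell markers all 10 reached 1 FPKM, with sums of 1630 to 1670 FPKM in DMSO, 1630 to 1650 in control ES and 1510 to 1540 in FDX1-OE ES. Of 13 T and NK cell markers 2 did, with sums of 83.4 to 88.7 FPKM in DMSO, 74.7 to 76.4 in control ES and 84.0 to 86.0 in FDX1-OE ES, and CD3D, CD3G, CD2, CD8B, GNLY and KLRD1 were at 0. Of 11 myeloid markers 2 did, with sums of 1.70 to 2.38 FPKM in DMSO, 3.84 to 5.06 in control ES and 4.70 to 6.87 in FDX1-OE ES, and S100A8, S100A9 and FCGR3A were at 0. Of 10 epithelial and fibroblast markers 1 did, with sums from 1.03 to 1.77 FPKM, and CDH1 and COL3A1 were at 0. The part of the marker levels, the mitochondrial share and the replicate spread in the results was not tested.

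Promoters of the 3 members with the smallest p for ES in FDX1-OE cells and of the 3 with the largest are shown, among those with an entry in the RefSeq promoter table (GRCh38.p14, 35 of the 41 members). Each covers 250 bases before and 50 after the annotated start, 5′ to 3′ in the direction of transcription. Capitals mark matches on either strand to E2F letters (TTTGGCGC, TTTCCCGC, TTTCGCGC or TTTGCCGC), to the CHR letters TTTGAA, which mark many G2 and mitosis promoters, or to CCAAT. RRM2 encodes the small and RRM1 the large subunit of ribonucleotide reductase, and TYMS encodes thymidylate synthase, which makes dTMP. For RRM2, 1 of its 2 entries is shown.
RRM2 chr2:10122489-10122788, plus strand: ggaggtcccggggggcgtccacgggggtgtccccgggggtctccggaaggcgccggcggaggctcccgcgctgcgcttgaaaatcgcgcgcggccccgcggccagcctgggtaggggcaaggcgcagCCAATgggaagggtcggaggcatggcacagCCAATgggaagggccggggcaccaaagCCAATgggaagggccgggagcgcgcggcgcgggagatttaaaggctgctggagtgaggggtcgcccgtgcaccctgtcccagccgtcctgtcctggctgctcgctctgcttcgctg
TYMS chr18:657403-657702, plus strand: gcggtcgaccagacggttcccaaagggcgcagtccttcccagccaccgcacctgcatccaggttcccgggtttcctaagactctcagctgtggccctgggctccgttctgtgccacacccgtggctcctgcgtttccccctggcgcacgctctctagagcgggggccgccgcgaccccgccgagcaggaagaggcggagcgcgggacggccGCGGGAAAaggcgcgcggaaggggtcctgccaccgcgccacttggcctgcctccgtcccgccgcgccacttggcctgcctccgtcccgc
RRM1 chr11:4094435-4094734, plus strand: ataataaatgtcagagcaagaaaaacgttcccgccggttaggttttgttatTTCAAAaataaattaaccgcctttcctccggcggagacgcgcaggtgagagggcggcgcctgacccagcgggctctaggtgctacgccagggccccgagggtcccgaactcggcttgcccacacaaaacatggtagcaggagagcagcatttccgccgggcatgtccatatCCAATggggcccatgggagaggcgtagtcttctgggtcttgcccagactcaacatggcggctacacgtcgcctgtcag
CDT1 encodes an origin licensing factor, RFC3 a subunit of the clamp loader and MCM2 a subunit of the helicase.
CDT1 chr16:88803539-88803838, plus strand: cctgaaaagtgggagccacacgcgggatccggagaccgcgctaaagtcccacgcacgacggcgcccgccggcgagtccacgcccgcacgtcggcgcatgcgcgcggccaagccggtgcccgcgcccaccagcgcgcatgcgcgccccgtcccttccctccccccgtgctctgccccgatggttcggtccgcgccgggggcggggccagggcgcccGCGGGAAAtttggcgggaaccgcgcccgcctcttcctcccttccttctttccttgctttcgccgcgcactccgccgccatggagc
RFC3 chr13:33817899-33818198, plus strand: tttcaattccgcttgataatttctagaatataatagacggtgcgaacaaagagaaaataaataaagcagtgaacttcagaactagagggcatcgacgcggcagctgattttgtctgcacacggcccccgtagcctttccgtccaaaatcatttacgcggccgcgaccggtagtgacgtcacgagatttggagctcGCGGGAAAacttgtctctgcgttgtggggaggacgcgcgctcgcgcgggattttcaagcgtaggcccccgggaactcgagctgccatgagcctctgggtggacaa
MCM2 chr3:127598161-127598460, plus strand: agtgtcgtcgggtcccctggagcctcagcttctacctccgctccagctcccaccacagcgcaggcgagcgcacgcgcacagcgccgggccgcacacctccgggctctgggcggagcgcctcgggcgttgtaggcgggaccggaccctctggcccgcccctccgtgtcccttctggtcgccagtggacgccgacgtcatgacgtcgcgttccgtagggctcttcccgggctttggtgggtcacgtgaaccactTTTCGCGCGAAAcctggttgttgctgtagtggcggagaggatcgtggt
The 3 promoters of genes that did not pass the test all held E2F letters, as did that of TYMS, whereas the RRM2 window held 3 CCAAT matches and the RRM1 window 1 CHR and 1 CCAAT match. The MCM2 window held 2 E2F matches that overlap on opposite strands. Genes were counted as holding letters if any of their entries did. Of the 35 members with an entry, 20 (57.1%) held E2F letters, against 3.99% of all 27305 genes with an entry. Among the 8768 tested genes with an entry it was 7.22%. CCAAT was in 22 of 35 members (62.9%) against 39.7% of all genes and 44.3% of tested genes with an entry. TTTGAA was in 1 of 35 (2.86%) against 18.2% and 13.2%. Among the 20 members with E2F letters the median log2 fold change with ES in FDX1-OE cells was 0.20 and 8 were called higher. Among the 15 without them it was 0.24 and 9 were called higher. The letters are a description of these windows, and their absence from one says nothing about the factor.

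The plot of the 41 genes by library gives the whole pattern at once. In it CCNE2, RRM2, TYMS, DTL and PRIM1 carry high values in both FDX1-OE ES columns, TK1 lies well below the other deoxynucleotide synthesis genes, and the origin licensing rows other than ORC6 stay close to the control DMSO mean in most libraries.

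**Figure D1:**
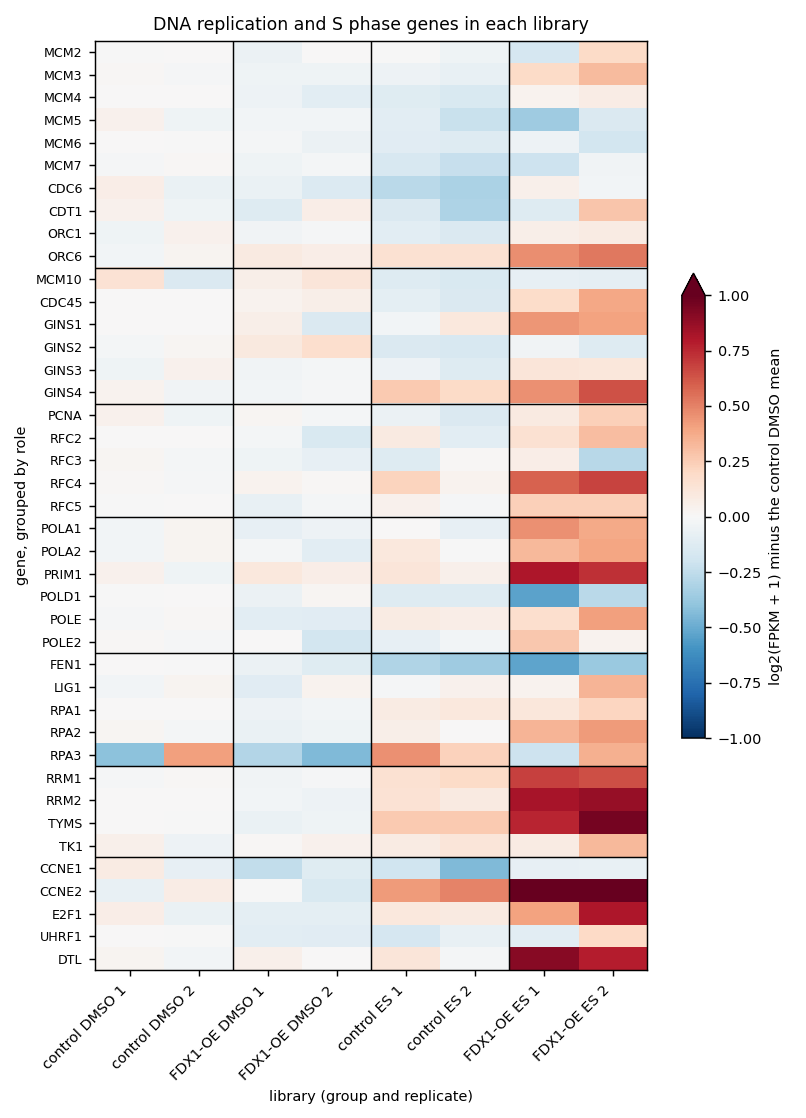
Each cell is log2(FPKM + 1) of 1 gene (rows, grouped by role) in 1 library (columns) minus the mean of that gene in the 2 control DMSO libraries; colours stop at 1 and CCNE2 lies beyond in FDX1-OE ES. CCNE2, RRM1, RRM2, TYMS, DTL and PRIM1 are highest in both FDX1-OE ES libraries, and FEN1 and POLD1 are lowest there.

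Differences are given on the log2(FPKM + 1) scale, with the standard error (SE) of the limma fit and p adjusted by Benjamini-Hochberg over all 12063 genes; a gene was called at an adjusted p below 0.05. In FDX1-OE cells, ES against DMSO called 24 of the 41 members (58.5%), 20 higher and 4 lower. Over all genes tested 60.8% were called, 47.1% higher and 13.7% lower, so the members' share lay near the background. The members' median log2 fold change was 0.23, beside 0.25 over all genes, with 19 members above the all-gene median and 22 below it. The split depended on scaling: with median-ratio scaling, which moved the all-gene median from 0.25 to 0.00, 10 members were called higher and 10 lower (3069 and 3287 of all genes). With quantile normalisation 21 members were higher and 4 lower (2783 and 2937 of all genes), and with equal FPKM totals 29 were higher and 2 lower (7063 and 1093 of all genes), against 5682 and 1652 of all genes on the deposited scale. In bulk RNA, a change in the number of cells in S phase and a change in RNA per cell cannot be told apart.

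The ribonucleotide reductase genes and TYMS rose together. RRM2 was at 95.1 and 95.1 FPKM in control DMSO, 93.2 and 91.6 in FDX1-OE DMSO, 105 and 101 in control ES, and 169 and 175 in FDX1-OE ES. The FDX1-OE ES libraries were far above the other 6, which lay close together. The log2 fold change with ES in FDX1-OE cells was 0.89 (SE 0.0542, adjusted p = 1.51e-05). RRM1 was at 79.3 and 80.8 FPKM in control DMSO, 78.2 and 79.2 in FDX1-OE DMSO, 89.3 and 91.3 in control ES, and 129 and 126 in FDX1-OE ES. Both ES groups lay above both DMSO groups without overlap, and the rise in FDX1-OE cells was 0.69 (SE 0.0529, adjusted p = 3.96e-05). TYMS was at 97.1 and 96.4 FPKM in control DMSO, 92.3 and 94.1 in FDX1-OE DMSO, 116 and 116 in control ES, and 165 and 189 in FDX1-OE ES. Its groups were ordered in the same way, with a rise of 0.91 in FDX1-OE cells (SE 0.0699, adjusted p = 3.85e-05). TK1, the cytosolic thymidine kinase that salvages thymidine, was the exception among the 4 genes, at 107 and 109 FPKM in FDX1-OE DMSO and 112 and 133 in FDX1-OE ES (0.18, adjusted p = 0.0982). With median-ratio scaling RRM1, RRM2 and TYMS were called higher too, at 0.40, 0.61 and 0.63. For TYMS 46.6% of the exonic bases are shared with genes on the opposite strand (ENOSF1 and TYMSOS; GENCODE release 29, GRCh38), and the strand handling of the counting is not given, so its value is uncertain. ENOSF1 itself was at 10.3 FPKM in FDX1-OE DMSO and 13.2 in FDX1-OE ES. RRM2 shares 20.2% of its exonic bases with AC007240.1 on the same strand, which was at 0 FPKM in all groups.

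CCNE2 had the largest rise of the 41 genes. Cyclin E2 activates CDK2 at entry into S phase. CCNE2 was at 10.8 and 12.1 FPKM in control DMSO, 11.4 and 10.2 in FDX1-OE DMSO, 15.7 and 16.5 in control ES, and 42.7 and 47.2 in FDX1-OE ES. No ES library overlapped a DMSO library, and the FDX1-OE ES libraries were far above those of control ES. The log2 fold change with ES in FDX1-OE cells was 1.96 (SE 0.0898, adjusted p = 4.51e-06), a ratio of 4.16 in FPKM. Of its exonic bases 37.1% are shared with genes on the opposite strand, among them INTS8, which was at 31.6 FPKM in FDX1-OE DMSO and 37.2 in FDX1-OE ES. CCNE1, which encodes the related cyclin E1, was at 14.8 and 16.2 FPKM in FDX1-OE DMSO and 16.7 and 16.8 in FDX1-OE ES (0.10, adjusted p = 0.391). CCNE2 per CCNE1 was 0.575 to 0.771 in the 4 DMSO libraries, 1.02 and 1.29 in control ES, and 2.56 and 2.81 in FDX1-OE ES.

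Of the other G1/S regulators, DTL and E2F1 rose and UHRF1 did not pass the test. DTL encodes the substrate receptor of the CUL4 ubiquitin ligase that degrades CDT1 on PCNA-bound DNA. DTL was at 12.8 and 12.3 FPKM in control DMSO, 13.0 and 12.6 in FDX1-OE DMSO, 13.7 and 12.4 in control ES, and 24.5 and 22.3 in FDX1-OE ES. The first 3 groups overlapped, and both FDX1-OE ES libraries stood above them (0.82, SE 0.0802, adjusted p = 0.000105). E2F1, a transcription factor of the G1/S boundary, was at 42.9 FPKM in both FDX1-OE DMSO libraries and at 61.0 and 81.4 in FDX1-OE ES (0.70, adjusted p = 0.00126), a wide gap between replicates. UHRF1, which brings DNA methyltransferase to newly copied DNA, was at 46.5 and 46.2 FPKM in FDX1-OE DMSO and 46.4 and 57.7 in FDX1-OE ES (0.15, adjusted p = 0.192).

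The polymerase and primase genes moved in opposite directions. PRIM1, the catalytic subunit of primase, was at 20.8 and 19.6 FPKM in control DMSO, 21.8 and 21.2 in FDX1-OE DMSO, 22 and 20.9 in control ES, and 36.2 and 34.1 in FDX1-OE ES. The 6 other libraries lay within a narrow band below the FDX1-OE ES pair, and the fold change was 0.68 (SE 0.0688, adjusted p = 0.000121). PRIM1 shares 16.2% of its exonic bases with genes on the same strand (AC117378.1 and NACA together), and NACA was at 277 FPKM in FDX1-OE DMSO and 179 in FDX1-OE ES. POLA1, the catalytic subunit of polymerase alpha, was at 15.2 and 15.8 FPKM in control DMSO, 14.6 and 14.9 in FDX1-OE DMSO, 15.5 and 14.6 in control ES, and 21.7 and 20.4 in FDX1-OE ES (0.49, adjusted p = 0.000623). POLA2, its second subunit, rose by 0.42 (adjusted p = 0.00121) and POLE, the catalytic subunit of polymerase epsilon, by 0.40 (adjusted p = 0.00314). POLE2 was at 13.0 and 11.3 FPKM and at 15.8 and 13.3 (0.23, adjusted p = 0.0707). POLD1, the catalytic subunit of polymerase delta, went the other way. It was at 61.1 and 61.6 FPKM in control DMSO, 59.0 and 62.2 in FDX1-OE DMSO, 56.0 and 56.0 in control ES, and 42.0 and 50.6 in FDX1-OE ES. Both FDX1-OE ES libraries were below all others, and POLD1 fell by 0.39 (SE 0.086, adjusted p = 0.005). POLE per POLD1 was 0.586 to 0.645 in DMSO, 0.75 and 0.74 in control ES, and 1.06 and 1.05 in FDX1-OE ES.

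FEN1, the nuclease that trims Okazaki fragment flaps, was lower with ES in both cell populations. FEN1 was at 116 and 115 FPKM in control DMSO, 111 and 106 in FDX1-OE DMSO, 93.7 and 90.2 in control ES, and 79.9 and 89.0 in FDX1-OE ES. No ES library reached a DMSO library. FEN1 fell by 0.36 in FDX1-OE cells (SE 0.0665, adjusted p = 0.00219), and PCNA, which holds it at the fork, was at 291 and 283 FPKM in FDX1-OE DMSO and 306 and 339 in FDX1-OE ES (0.17, adjusted p = 0.0594). FEN1 per PCNA was 0.374 to 0.413 in DMSO, 0.341 and 0.348 in control ES, and 0.261 and 0.263 in FDX1-OE ES. RPA1 and RPA2, subunits of the single-strand binding complex, rose by 0.20 (adjusted p = 0.0172) and 0.44 (adjusted p = 0.000548). RPA2 was at 38.3 and 37.1 FPKM in control DMSO, 35.9 and 36.5 in FDX1-OE DMSO, 39.4 and 37.8 in control ES, and 48.0 and 51.1 in FDX1-OE ES. RPA3, its small subunit, ranged from 18.3 to 34.9 FPKM over the 8 libraries, with 18.7 and 33.7 FPKM within control DMSO alone. It was at 20.3 and 18.3 FPKM in FDX1-OE DMSO and 21.6 and 32.5 in FDX1-OE ES (0.44, SE 0.26, adjusted p = 0.172). LIG1, which joins Okazaki fragments, was at 40.3 and 44.7 FPKM in FDX1-OE DMSO and 44.8 and 55.6 in FDX1-OE ES (0.23, adjusted p = 0.0808).

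**Figure D2:**
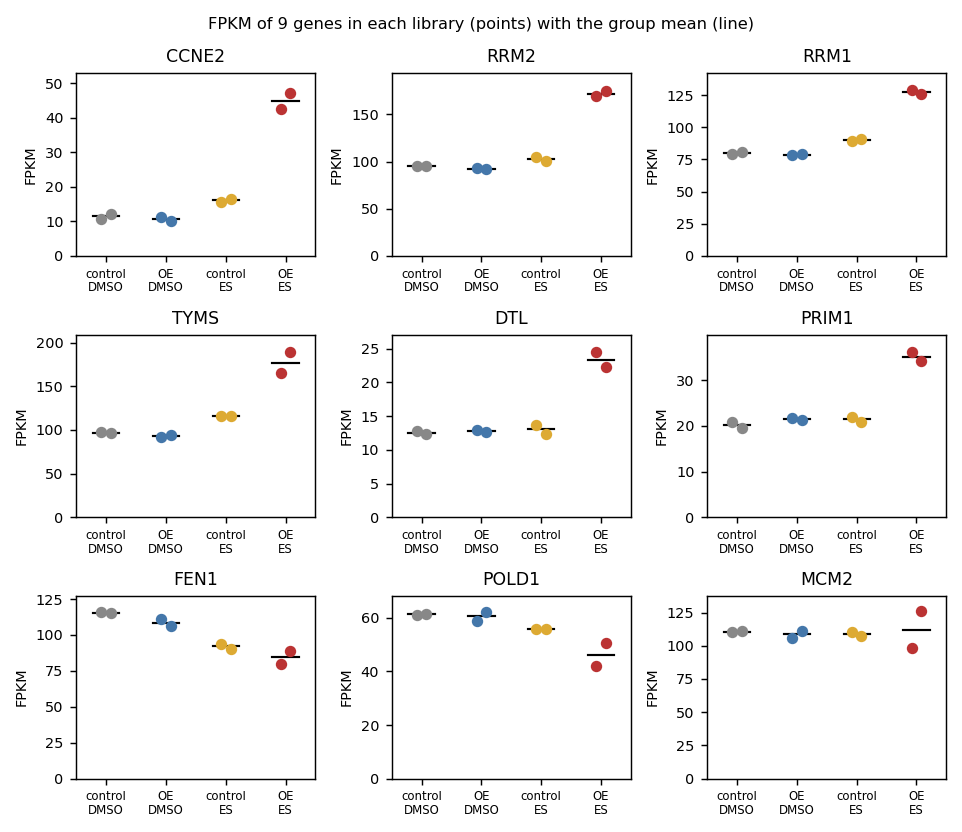
FPKM of 9 genes in each library (points) with the group mean (lines), the vertical axes starting at 0. CCNE2, RRM2, RRM1, TYMS, DTL and PRIM1 are highest in FDX1-OE ES, FEN1 and POLD1 are lowest there, and the MCM2 points of FDX1-OE ES lie on both sides of the other groups.

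The plot of 9 genes sets those that rose beside FEN1, POLD1 and MCM2. Of the 6 helicase genes MCM3 was called higher and MCM5 lower, and the other 4 were not called. MCM3 was at 133 and 133 FPKM in FDX1-OE DMSO and 157 and 171 in FDX1-OE ES (0.29, adjusted p = 0.00316). MCM5 was at 114 and 114 FPKM and then 90.8 and 105 (-0.22, adjusted p = 0.045), a call that held in 3 of 16 alternatives and was lost without any 1 library other than FDX1-OE ES replicate 2. MCM2 was at 110 and 111 FPKM in control DMSO, 106 and 111 in FDX1-OE DMSO, 110 and 107 in control ES, and 98.4 and 126 in FDX1-OE ES. The FDX1-OE ES libraries of MCM2 spanned all the others (0.04, SE 0.102, adjusted p = 0.78), and the 2 libraries gave opposite calls: its value was 0.21 without replicate 1 of that group (adjusted p = 0.00862) and -0.14 without replicate 2 (adjusted p = 0.0408). Under median-ratio scaling it was -0.25, not called. MCM4 was at 238 and 230 and then 253 and 260 FPKM, MCM6 at 86.1 and 84.0 and then 84.3 and 77.1 FPKM, and MCM7 at 221 and 225 and then 197 and 222 FPKM, with adjusted p = 0.0589, 0.307 and 0.274. The share of MCM3 in the MCM2 to MCM7 sum was 14.7% to 14.9% in DMSO, 15.3% and 15.7% in control ES, and 17.8% in both FDX1-OE ES libraries. That of MCM5 was 12.2% to 12.9% in DMSO and 10.3% and 11.0% in FDX1-OE ES.

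Among the genes that load the helicase, ORC6, a subunit of the origin recognition complex, was at 32.9 and 34.2 FPKM in control DMSO, 35.7 and 35.1 in FDX1-OE DMSO, 37.4 and 37.3 in control ES, and 46.7 and 48.7 in FDX1-OE ES (0.42, adjusted p = 0.000535). CDT1 was at 39.8 and 45.8 FPKM in FDX1-OE DMSO and 39.9 and 53.2 in FDX1-OE ES. These libraries overlapped (0.11, SE 0.133, adjusted p = 0.502; 0.31 and adjusted p = 0.0344 without FDX1-OE ES replicate 1, -0.10 and 0.442 without replicate 2), and in control DMSO and control ES CDT1 was at 45, 42.3, 39.4 and 35.1 FPKM. CDC6 had 0.11 (adjusted p = 0.215) and ORC1 0.09 (adjusted p = 0.221). Of the genes that activate the helicase, GINS4 rose by 0.57 (adjusted p = 0.000551), GINS1 by 0.46 (adjusted p = 0.00226) and CDC45 by 0.23 (adjusted p = 0.0271). GINS2, a subunit of the same GINS complex, fell by 0.21 (adjusted p = 0.0223). GINS2 made 32.1% to 35.9% of the summed FPKM of GINS1 to GINS4 in DMSO, 29.2% in both control ES libraries, and 27.0% and 24.9% in FDX1-OE ES. GINS3 had 0.14 (adjusted p = 0.0933) and MCM10 -0.17 (adjusted p = 0.153).

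In the clamp loader RFC4 was at 37.5 and 36.9 FPKM in control DMSO, 38.2 and 37.6 in FDX1-OE DMSO, 43.5 and 38.2 in control ES, and 56.4 and 59.9 in FDX1-OE ES. RFC4 rose by 0.60 in FDX1-OE cells (SE 0.0742, adjusted p = 0.000282), RFC5 by 0.29 (adjusted p = 0.00429) and RFC2 by 0.32 (adjusted p = 0.0136). RFC3 was at 35.4 and 34.5 FPKM in control DMSO, 33.8 and 33.0 in FDX1-OE DMSO, 31.9 and 35.2 in control ES, and 36.7 and 28.6 in FDX1-OE ES. Its FDX1-OE ES libraries were its highest and its lowest (-0.04, SE 0.109, adjusted p = 0.745). RFC3 was called lower without replicate 1 of that group (-0.22, adjusted p = 0.0309) and with median-ratio scaling (-0.32, adjusted p = 0.0314), and was at 0.13 without replicate 2 (adjusted p = 0.14). RFC3 took 23.6% to 24.2% of the summed FPKM of RFC2 to RFC5 in DMSO, 20.9% and 24.6% in control ES, and 20.7% and 16% in FDX1-OE ES. Both FDX1-OE ES libraries lay below those of control ES, replicate 1 only just.

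**Figure D3:**
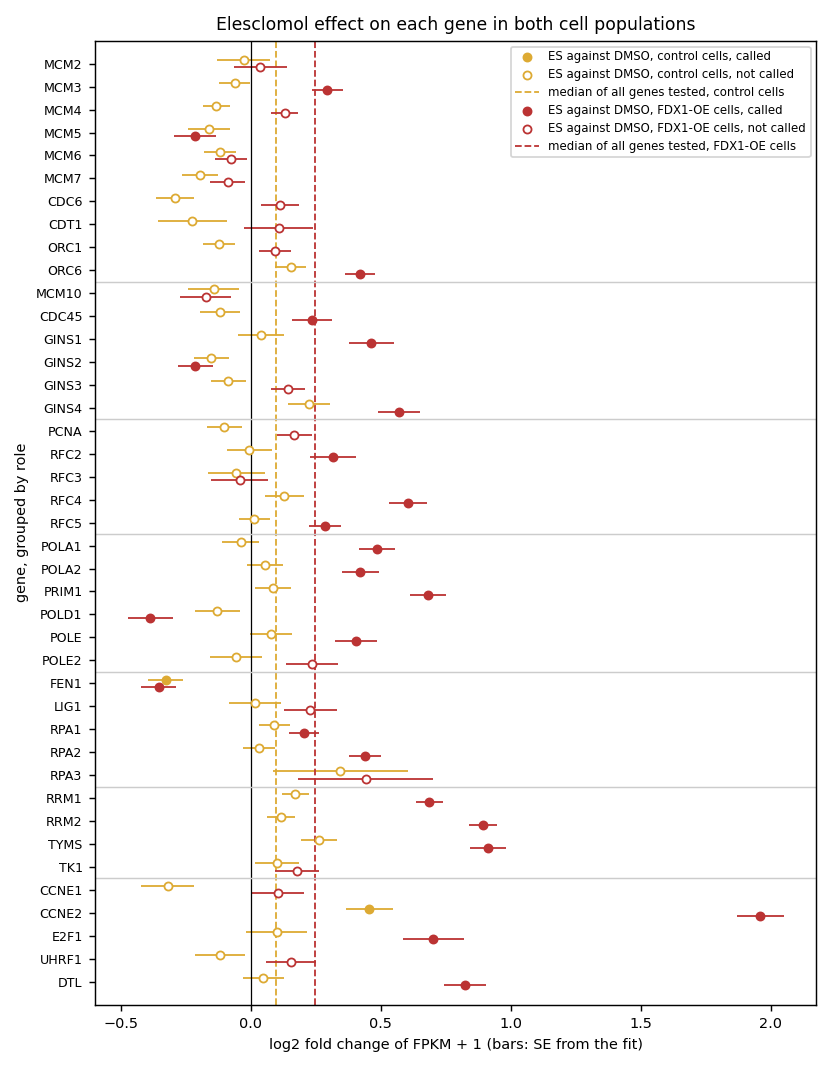
Log2 fold change of FPKM + 1 with ES against DMSO for each gene (rows, grouped by role) in control and FDX1-OE cells; bars are the SE of the fit, filled points were called at an adjusted p below 0.05, and dashed lines are the medians of all genes tested, 0.09 and 0.25. CCNE2 is the farthest point at 1.96, and FEN1 is filled on the lower side in both.

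By role, 3 of 4 genes of deoxynucleotide synthesis rose and 0 fell (median 0.79), as did 3 of 5 G1/S regulators (median 0.70). Of the 6 polymerase and primase genes 4 rose and 1 fell (median 0.41), of the 5 clamp and clamp loader genes 3 rose and 0 fell (0.29), of the 5 Okazaki and single-strand binding genes 2 rose and 1 fell (0.23), of the 6 helicase activation genes 3 rose and 1 fell (0.19), and of the 10 licensing genes 2 rose and 1 fell (0.10). Over all genes 47.1% rose and 13.7% fell. Near these shares lie the counts for helicase activation, clamp, Okazaki and G1/S genes, the clamp and G1/S counts being the same. The roles hold 4 to 10 genes each, so 1 call more or less moves a share by much. No role was tested against all genes. With median-ratio scaling the counts of higher and lower calls were 3 and 0 in deoxynucleotide synthesis, 3 and 0 among the G1/S regulators, 2 and 1 among polymerases and primase, 1 and 1 for the clamp and its loader, 0 and 1 for Okazaki and single-strand binding genes, 1 and 2 for helicase activation and 0 and 5 for licensing. With quantile normalisation they were 2 and 2 for helicase activation and 3 and 0 for licensing, and with equal FPKM totals 4 and 0 and 5 and 0. Called in all 16 alternatives were 12 members: CCNE2, RRM2, TYMS, RRM1, DTL, PRIM1, RFC4, GINS4, POLA1 and E2F1 as higher, FEN1 and POLD1 as lower. The calls of ORC6, RPA2, POLA2, GINS1, POLE, MCM3, RFC5, RFC2, RPA1 and CDC45 were lost with median-ratio scaling. Those of RFC2, RPA1, GINS2 and CDC45 were also lost without replicate 2 of FDX1-OE DMSO, those of RPA1, GINS2 and CDC45 without replicate 1, and those of RFC2 and CDC45 without replicate 2 of FDX1-OE ES.

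**Figure D4:**
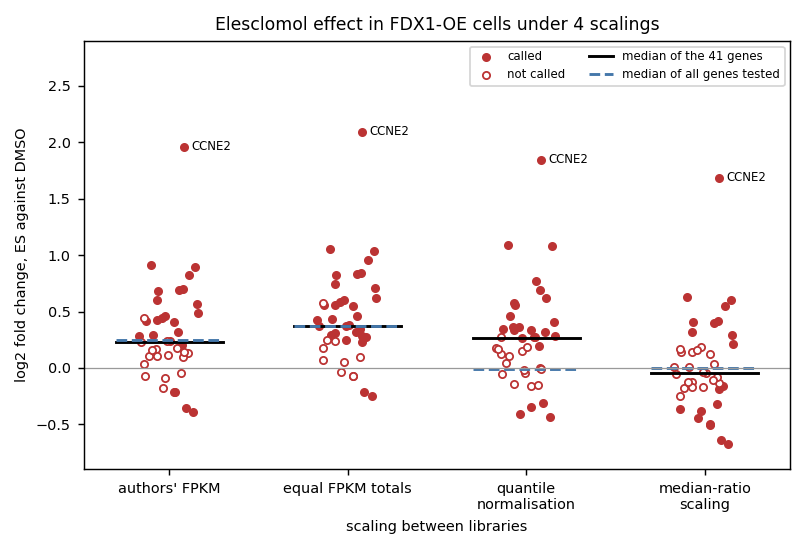
Log2 fold change with ES in FDX1-OE cells for each of the 41 genes under 4 scalings between libraries; filled points were called, solid lines are the medians of the 41 genes and dashed lines those of all genes tested. The all-gene median lies at 0.25, 0.37, -0.01 and 0.00 from left to right, and CCNE2 is the highest point each time.

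The plot of the 4 scalings shows CCNE2 highest each time, while the line of no change moved through the middle of the list. Ratios of 2 genes within a library are the same under any scaling by 1 factor per library, which quantile normalisation is not. Per 100 FPKM of MCM2 to MCM7, RRM2 held 10.2 to 10.4 in DMSO, 12.2 and 12.1 in control ES, and 19.3 and 18.3 in FDX1-OE ES. TYMS held 10.3 to 10.5, then 13.4 and 14.0, then 18.7 and 19.7, and FEN1 held 11.8 to 12.5, then 10.9 and 10.8, then 9.08 and 9.26. In each of these ratios the control ES libraries lay between those of DMSO and those of FDX1-OE ES. A ratio within a library shows unequal change of its 2 parts and not that either stayed the same.

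**Figure D5:**
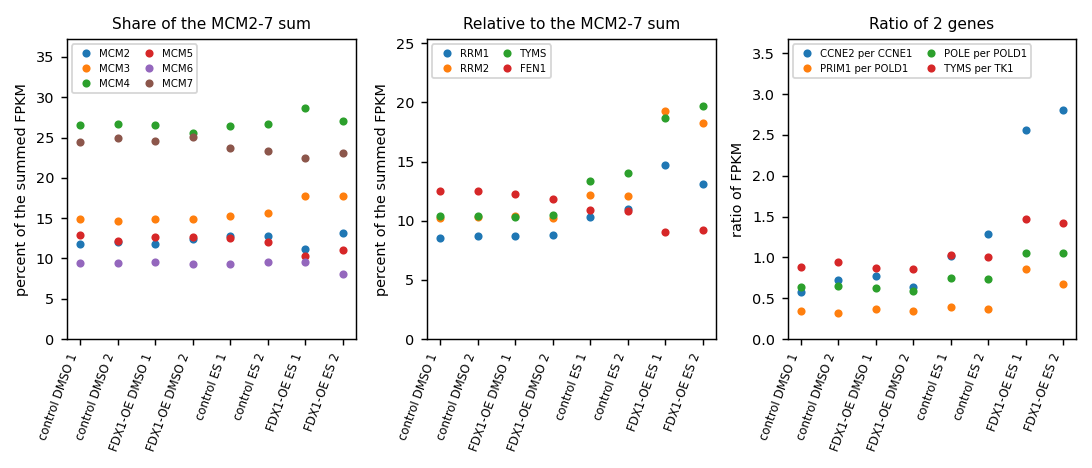
Shares of the summed FPKM of MCM2 to MCM7 (left), FPKM relative to that sum (middle) and ratios of 2 genes (right) in each of the 8 libraries (horizontal axis). RRM2 relative to the MCM sum is 10.2% to 10.4% in DMSO and 19.3% and 18.3% in FDX1-OE ES, and CCNE2 per CCNE1 reaches 2.56 and 2.81.

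In control cells, ES called 2 of the 41 members (4.88%), 1 higher and 1 lower, and 7.74% of all genes, 6.74% higher and 1.00% lower. CCNE2 rose by 0.46 (SE 0.0898, adjusted p = 0.026) and FEN1 fell by 0.33 (SE 0.0665, adjusted p = 0.0283). The next smallest p belonged to CDC6, TYMS, RRM1, CCNE1, MCM7 and GINS4. CDC6, a licensing ATPase, was at 26.5 and 24.0 FPKM in control DMSO and 20.7 and 20.1 in control ES (-0.29, adjusted p = 0.051). TYMS had 0.26 (adjusted p = 0.06) and RRM1 0.17 (adjusted p = 0.0846), both with control ES libraries above those of control DMSO. CCNE1 was at 18.8 and 16.7 FPKM in control DMSO and 15.3 and 12.8 in control ES (-0.32, adjusted p = 0.088), MCM7 at 226 and 230 and then 204 and 194 FPKM (-0.20, adjusted p = 0.11), and GINS4 at 18.7 and 17.7 and then 22 and 20.9 FPKM (0.22, adjusted p = 0.121). The members' median was -0.03 against 0.09 over all genes, and 31 of 41 members lay below the all-gene median. The 2 calls rested on every library of this comparison, and neither held when 1 of them was left out. That of FEN1 was also lost without either FDX1-OE DMSO library. The fit shares the spread of the FDX1-OE ES libraries, and more members were called without either of these. The count over all genes moved likewise. Without control ES replicates 1 and 2 the members' median was -0.0271 and -0.0107, beside 0.11 and 0.0757 over all genes. With median-ratio scaling 0 members were called higher and 5 lower (436 and 394 of all genes, against 813 and 121 on the deposited scale), and with quantile normalisation 0 higher and 1 lower (172 and 59 of all genes).

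In DMSO, 0 of the 41 members were called between FDX1-OE and control cells by limma. An unadjusted p below 0.05 was found for 0 members and for 420 of the 12063 genes tested. The members' median log2 fold change was -0.04, beside 0.0006 over all genes. Of the 41 members 33 lay below the all-gene median and 8 above it. Over all genes 0.00829% were called, which was FDX1 alone. The smallest p among the members belonged to GINS2, at 29.8 and 31.4 FPKM in FDX1-OE DMSO against 27.4 and 28.2 in control DMSO (0.13, adjusted p = 0.999), and CCNE1, at 14.8 and 16.2 against 18.8 and 16.7 (-0.18, adjusted p = 0.999). With library weights 0 members were called too.

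In ES, 23 of the 41 members (56.1%) were called between FDX1-OE and control cells, 22 higher and 1 lower, against 41.5% of all genes, 31.1% higher and 10.4% lower. This comparison shares the FDX1-OE ES libraries with the ES effect in FDX1-OE cells, and 18 members were called in both. The largest difference was again that of CCNE2, 1.43 (SE 0.0898, adjusted p = 6.93e-05). RRM2 was 0.74 higher in FDX1-OE ES than in control ES (adjusted p = 0.000135), DTL 0.80 (adjusted p = 0.000481), PRIM1 0.68 (adjusted p = 0.00049), RRM1 0.49 (adjusted p = 0.000596) and TYMS 0.60 (adjusted p = 0.000786). RFC4 was 0.50 higher (adjusted p = 0.00193) and POLA1 0.46 (adjusted p = 0.0022). These 8 genes were called in all 16 alternatives. Genes called here but not with ES in FDX1-OE cells included MCM4 (0.19, adjusted p = 0.0218), CDC6 (0.30, adjusted p = 0.0131) and PCNA (0.27, adjusted p = 0.0147), which had lower values in control ES than in control DMSO. POLD1 was the 1 lower (-0.28, adjusted p = 0.0334). The count was lower without either control ES library, as was that over all genes. The members' median was 0.311 without control ES replicate 1 and 0.213 without replicate 2, beside 0.135 and 0.174 over all genes. With median-ratio scaling 8 members were higher and 3 lower (1818 and 2218 of all genes, against 3757 and 1251). With equal FPKM totals 5867 and 739 of all genes were. With quantile normalisation 18 members were higher and 1 lower (1723 and 1788 of all genes).

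The effect of ES differed between FDX1-OE and control cells for 15 of the 41 members (36.6%), all 15 with the larger log2 fold change in FDX1-OE cells, against 19.0% of all genes, 13.9% in that direction and 5.06% in the other. The difference between the effects was 1.5 for CCNE2 (SE 0.127, adjusted p = 0.000894), 0.78 for RRM2 (adjusted p = 0.00168), 0.52 for RRM1 (adjusted p = 0.00615) and 0.77 for DTL (adjusted p = 0.00627). It was 0.65 for TYMS (adjusted p = 0.00687), 0.60 for PRIM1 (adjusted p = 0.00841), 0.52 for POLA1 (adjusted p = 0.0131) and 0.41 for RPA2 (adjusted p = 0.0192). For FEN1, lower with ES in both populations, it was -0.03 (adjusted p = 0.859), and for POLD1 -0.26 (adjusted p = 0.165). CCNE2, DTL, PRIM1, RRM1, RRM2 and TYMS were called in all 15 alternatives. The count of members called was lower without any library of the other groups and higher without either FDX1-OE ES library. The count over all genes moved likewise. The members' median difference was 0.312 and 0.265 without control ES replicates 1 and 2, beside 0.131 and 0.167 over all genes. Without FDX1-OE ES replicates 1 and 2 it was 0.381 and 0.245, beside 0.134 and 0.138. With median-ratio scaling 6 members were called (1840 genes in all), and with equal FPKM totals 25 (3868 in all). Over all genes, 1681 had the larger and 610 the smaller effect in FDX1-OE cells, which became 686 and 714 under quantile normalisation, 706 and 1134 under median-ratio scaling, and 3466 and 402 with equal FPKM totals.

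Lists of other genes of the pathway were read in the same way, for ES against DMSO in FDX1-OE cells unless said otherwise. Of 35 other replication fork and origin factors 16 were higher and 4 lower, near the 47.1% and 13.7% of all genes; the counts were 11 and 11 under median-ratio scaling, 14 and 7 under quantile normalisation and 21 and 1 with equal FPKM totals. In the counts of lists that follow, the first pair in brackets is that with median-ratio scaling. Counts on the deposited scale are to be read against the same shares of all genes. Those with median-ratio scaling are to be read against 3069 higher and 3287 lower of 12063 genes. The all-gene counts were 2783 and 2937 with quantile normalisation, and 7063 and 1093 with equal FPKM totals. CLSPN, the claspin mediator between stalled forks and the CHK1 kinase, went from 18.7 to 33.6 FPKM (group means, 0.81), POLD3, an accessory subunit of polymerase delta, from 13.2 to 23.9 (0.81), TIMELESS, a fork protection factor, from 34.0 to 56.9 (0.72) and DONSON, which helps to assemble the active helicase, from 34.0 to 53.6 (0.64). POLD1 thus fell while POLD3 of the same polymerase rose. Its other subunits in the list, POLD2 and POLD4, were not called (-0.07 and -0.06, adjusted p = 0.371 and 0.468 by limma). Of 18 replication checkpoint genes 11 were higher and 0 lower (7 and 2, or 8 and 1 with quantile normalisation), among them HUS1 of the 9-1-1 clamp (7.71 to 19.8 FPKM, 1.26), the nuclease EXO1 (1.09), FANCD2 (21.8 to 40.6, 0.87) and FANCI (44.1 to 80.1, 0.85). In control cells 4 of the 18 were higher and 0 lower, beside 6.74% and 1.00% of all genes, but 0 were called under quantile normalisation or median-ratio scaling. Of the 23 tested genes in the E2F, RB and cyclin-CDK list 14 were higher and 4 lower (8 and 7). E2F8 and E2F7, repressors of the E2F family, went from 8.75 to 23.8 FPKM and from 1.94 to 6.70 FPKM, E2F2, an activator, from 19.6 to 32.9, and CDK2, the partner of cyclin E, from 47.6 to 81.1.

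Nucleotide supply genes other than the 4 members had 6 higher and 10 lower of 23 (4 and 14, or 9 and 5 with equal FPKM totals). NME1, a nucleoside diphosphate kinase, went from 207 to 113 FPKM (-0.87) and ADSL of purine synthesis from 38.0 to 22.7 (-0.72). SAMHD1, which breaks down dNTPs, went from 33.2 to 71.8 FPKM (1.09), and MTHFD2 of the mitochondrial folate pathway from 53.5 to 81.4 (0.60). Chromatin assembly genes had 4 higher and 2 lower of 12 (1 and 5, or 9 and 1 with equal FPKM totals), with ASF1B, a histone chaperone, at 0.73 and H2AZ1, a histone variant, at -0.47. Of the 6 tested CDK inhibitor genes 4 were higher and 0 lower (3 and 2), or 4 and 1 with quantile normalisation. CDKN1A, which encodes p21 and is 1 of the 4, was at 0.381 and 0.434 FPKM in FDX1-OE DMSO and 5.47 and 7.06 in FDX1-OE ES, and at 0.189 to 0.933 in the 4 control libraries. It passed the filter through the FDX1-OE ES libraries alone, the group where it is high, so its call is not counted as support. Of 28 genes of G2 phase and mitosis 8 were higher and 4 lower (5 and 15, or 6 and 5 with quantile normalisation), with CCNB1, cyclin B1, from 97.3 to 53.1 FPKM (-0.87), CDC20, an activator of the anaphase-promoting complex, from 132 to 83.2 (-0.66), FOXM1 from 32.6 to 60.3 (0.86) and CDC25C from 4.39 to 9.01 FPKM (0.89). Apart from POLD2 and POLD4, all the genes named in the lists of fork, checkpoint, E2F, nucleotide supply and G2 genes were called by limma in FDX1-OE cells in each of the 16 alternatives.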

How the data were processed

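RNA sequencing gave 8 files, 1 per library, with 60592 rows. No header names the unit; the values were taken as FPKM made by the authors, from the values themselves. Per the submitters' processing notes, the tools were HISAT2, HTSeq and R 3.2.0 and the build hg19, with no roles stated; the tool that made the FPKM and its strand handling are not given in the sources used here. Files held 0 columns of other samples. Values were used as log2(FPKM + 1), on which fold changes of low genes are understated, with no scaling beyond the authors' deposited one.

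One limma 3.58.1 model under R 4.3.3, with its trend option, held a mean for each of 4 groups over all 8 libraries (residual degrees of freedom 4, prior 4.25); tests were two-sided with Benjamini-Hochberg adjustment over 12063 genes, those at 1 FPKM or more in at least 2 libraries. The fit was tested on simulated data with the same spread in all 8 libraries. In the real data the FDX1-OE ES replicates lay further apart, and the simulation does not cover that. There were 16 alternatives, 8 of them leaving out 1 library each. The labels do not say whether replicate numbers pair the libraries, and the main fit used no pairing. Correlations of replicate differences between groups ran from -0.05 to 0.08, which cannot exclude shared batches.

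Members and lists were chosen with earlier results of these data known, and no test was made over a list. The rule for named genes allowed any member, and asked for values by library for up to 8 members with the smallest p in a comparison or in the interaction and for 3 with the largest p. All 8 libraries are given for those of ES in FDX1-OE cells, of the ES comparison of both populations and of the interaction. In the other comparisons the libraries compared are given, and members with the largest p are given for ES in FDX1-OE cells. Up to 4 genes with the smallest p were named per other list, and POLD2 and POLD4 beside POLD3. Overlaps between genes were counted in GENCODE release 29 (GRCh38). Over 20% of exonic bases were shared with other genes on either strand for 7 members: MCM2, GINS4, POLA2, PRIM1, RRM2, TYMS and CCNE2. Figures and tables used Python 3.11.15, pandas 2.3.3 and matplotlib 3.10.9.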

Additional observations from a re-analysis of the deposited data

Results flagged for a closer look

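For 15 members the effect of ES differed between FDX1-OE and control cells by the interaction test. The difference in log2 fold change, FDX1-OE minus control, was 1.5 for CCNE2, 0.778 for RRM2, 0.775 for DTL, 0.652 for TYMS, 0.604 for E2F1, 0.598 for PRIM1, 0.524 for POLA1, 0.515 for RRM1, 0.475 for RFC4, 0.425 for GINS1, 0.408 for RPA2, 0.403 for CDC6, 0.368 for POLA2, 0.356 for MCM3 and 0.264 for MCM4. For CDC6 and MCM4 the 2 effects had opposite signs, -0.29 and 0.11 for CDC6 and -0.13 and 0.13 for MCM4, and the FDX1-OE effect turned sign with median-ratio scaling for both. GINS1 was called in 2 of 15 alternatives, POLA2 in 4, and CDC6, E2F1 and MCM4 in 6 each, whereas CCNE2, RRM2, DTL, TYMS, PRIM1 and RRM1 were called in all 15.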

How the results depend on the processing

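Median-ratio scaling turned the members' median with ES in FDX1-OE cells to -0.0481 (0.23 on the deposited scale), RPA1 to -0.0800, CDC45 to -0.0481, CDT1 to -0.18, MCM2 to -0.25 and FDX1 to -0.23 (adjusted p = 0.0159). In that comparison 14 of the 41 members turned sign with this scaling. Beside RPA1, CDC45, CDT1 and MCM2 they were MCM4, CDC6, ORC1, GINS3, PCNA, POLE2, LIG1, TK1, CCNE1 and UHRF1. With quantile normalisation 5 members turned sign, and with equal FPKM totals 3. Equal FPKM totals gave 0.10 for RFC3. Leaving out 1 library each, CDT1 ranged from -0.10 to 0.31, RFC3 from -0.22 to 0.13 and MCM2 from -0.14 to 0.21, the 2 ends coming from leaving out 1 of the FDX1-OE ES libraries. The members' median with median-ratio scaling was -0.14 for ES in control cells and 0.0644 for FDX1-OE against control in ES. Members called with ES in control cells (2) numbered 0 with no filter on low values, 5 with median-ratio scaling, 1 with quantile normalisation, 6 with only the 2 groups compared, 10 with library weights and 0 to 9 leaving out 1 library. Between FDX1-OE and control in ES (23) they numbered 11 with median-ratio scaling, 14 with only the 2 groups and 13 to 30 leaving out 1 library. For the interaction (15) they numbered 8 with no filter, 6 with median-ratio scaling, 25 with equal FPKM totals and 6 to 25 leaving out 1 library. Genes called with ES in control cells (934) numbered 58 with no filter, 231 with quantile normalisation, 1675 with only the 2 groups, 2523 with library weights and 28 to 2242 leaving out 1 library. Between FDX1-OE and control in DMSO (1) they numbered 3 with no filter, 4 with library weights and 1 to 2 leaving out 1 library, and in ES (5008) they numbered 3117 with only the 2 groups, 3026 with library weights and 2511 to 4903 leaving out 1 library. For the interaction (2291) they numbered 1339 with no filter, 1400 with quantile normalisation, 3868 with equal FPKM totals and 539 to 3183 leaving out 1 library. The cause of these shifts was not tested. With a replicate block, 24 members were called with ES in FDX1-OE cells and 2 with ES in control cells (7235 and 705 of all genes). Between FDX1-OE and control, 0 were called in DMSO and 21 in ES (1 and 4843 of all genes). In the interaction 11 were called (1922 of all genes). Of the values for single genes, 1283 kept their direction and side of the threshold, 134 lost a call, 29 gained one and 9 reversed. These cover only the genes followed in each comparison and leave out most members that turned sign. Groups of 2, an unknown depth and a replicate gap in FDX1-OE ES, where 29 of 41 members were higher in replicate 2, limit the precision.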

Other observations

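The summed FPKM of the 41 genes was 2625 and 2601 in control DMSO, 2547 and 2540 in FDX1-OE DMSO, 2571 and 2495 in control ES, and 2893 and 3164 in FDX1-OE ES. That was 0.709% and 0.785% of the FPKM of the FDX1-OE ES libraries and 0.558% to 0.582% of the other 6. The higher share was not particular to the list by its median. With equal FPKM totals, the members' median log2 fold change with ES in FDX1-OE cells was 0.37, beside 0.37 over all genes. The replicate spread of the members was smaller than that of all genes in each group: their median absolute log2 difference was 0.0422 (control) and 0.0359 (FDX1-OE) in DMSO, and 0.0604 (control) and 0.128 (FDX1-OE) in ES. All genes tested include those near the filter of 1 FPKM, and the members were not compared with genes of like level.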
